A study of Mus musculus with 8 samples.

Results

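The nuclear and neuronal long noncoding RNAs Malat1, Neat1, Meg3, Rian, Mirg, Miat, Snhg11 and Gas5 were followed through hippocampal RNA-seq of female mice. They were taken by gene symbol, and all 8 were found among the 29442 rows of the count table. The 8 libraries came from female C57BL/6 J mice aged 6 to 8 weeks. The libraries labelled DHEA (n = 4) were from mice given dehydroepiandrosterone, a weak androgen and neurosteroid, subcutaneously at 30 mg/kg/day for 21 days. The libraries labelled sesame oil (n = 4) were from mice given the vehicle alone. The study's methods place the dissection in the ventral hippocampus, the labels give polyA RNA, and directions below follow the deposited labels. The libraries held 31483772 to 38038361 counts each, and every member had at least 180 counts in every library. Groups were compared to ask whether DHEA is accompanied by a different hippocampal transcriptome. The study's methods describe 4 mice a group and hippocampi taken mouse by mouse after behavioural tests, with one side used for RNA-seq. The labels name no animal, and the p-values measure the spread between these libraries. The series' design text speaks of 6 tissues where the labels list 8 libraries, and replicate 4 of each group carries a record number apart from those of the other 6 libraries.

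Long noncoding RNAs (lncRNAs) act as RNA molecules and not through a protein. Malat1 sits in nuclear speckles, where splicing factors are stored, and Neat1 is the RNA scaffold of the neighbouring paraspeckles. Meg3, Rian and Mirg lie one after another in the Dlk1-Dio3 imprinted domain, are made from the maternal chromosome, and carry small nucleolar RNAs (snoRNAs) and microRNAs in their introns or along their length. Miat forms its own nuclear domains in neurons and binds splicing factors. Snhg11 and Gas5 are host genes of snoRNAs. Gas5 differs from the rest in that its spliced RNA goes to the cytoplasm, is translated unproductively and is destroyed by nonsense-mediated decay, and it carries a hairpin that resembles the DNA site of steroid receptors. Mature Malat1 and the long form of Neat1 end without a poly(A) tail, so libraries made from polyA RNA sample them only in part.

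The promoters of Meg3, which opens the imprinted RNA cluster, and of Gas5 are shown because these RNAs behaved most differently in the libraries. Each is a RefSeq sequence of build GRCm38.p6 on the plus strand, from 250 bases before to 50 bases after the start, and capitals mark TGACGTCA (the cAMP response element, CRE), TATAAA and, in Gas5, the CTTTC that opens the transcript.
Meg3 at chr12:109540746-109541045: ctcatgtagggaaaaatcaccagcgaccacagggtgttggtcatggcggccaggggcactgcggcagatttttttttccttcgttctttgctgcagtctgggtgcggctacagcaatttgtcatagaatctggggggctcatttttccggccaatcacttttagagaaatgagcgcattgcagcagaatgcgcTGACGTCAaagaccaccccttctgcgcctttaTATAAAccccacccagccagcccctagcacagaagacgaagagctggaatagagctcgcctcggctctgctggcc
Gas5 at chr1:161034916-161035215: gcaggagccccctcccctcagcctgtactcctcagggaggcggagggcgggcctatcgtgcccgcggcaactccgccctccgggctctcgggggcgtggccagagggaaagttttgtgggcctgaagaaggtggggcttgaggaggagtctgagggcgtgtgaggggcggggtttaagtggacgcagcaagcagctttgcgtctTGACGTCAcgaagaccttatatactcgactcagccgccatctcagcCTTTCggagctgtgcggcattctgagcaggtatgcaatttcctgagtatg
The CRE begins 57 bases before the Meg3 start and 46 bases before the Gas5 start, and TATAAA begins 25 bases before the Meg3 start. Of 32851 RefSeq promoters of the same 300 bases, 1.79% hold TGACGTCA, which reads the same on both strands, and 13.6% hold TATAAA on either strand. A transcript start of CTTTC, read on the sense strand only, occurs in 0.137%. This is the terminal oligopyrimidine start for which Gas5 is known. Promoter sequences were found for 7 of the 8 members, without Neat1.

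The imprinted RNAs are also read through their microRNAs. In the RefSeq annotation 2 microRNA genes overlap Meg3, 3 overlap Rian and 10 overlap Mirg. A few of their mature products are printed to show what these host RNAs carry, with the seed (bases 2 to 8) in capitals. The small RNAs themselves were not measured in these libraries.
mmu-miR-770-3p, in Meg3: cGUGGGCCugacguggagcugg
mmu-miR-370-3p, in Rian: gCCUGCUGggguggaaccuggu
mmu-miR-410-3p, in Mirg: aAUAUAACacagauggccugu
mmu-miR-377-3p, in Mirg: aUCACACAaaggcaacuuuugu
mmu-miR-453, in Mirg: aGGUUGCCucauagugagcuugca
mmu-miR-496a-5p, in Mirg: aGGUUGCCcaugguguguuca
Of those printed, miR-453 and miR-496a-5p share the seed GGUUGCC, and the others each have their own.

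Libraries that stood apart are described before any comparison. DHEA replicates 1 and 2 were the lowest of the 8 libraries for 7 of the members, all but Gas5. DHEA replicates 3 and 4 lay within or above the sesame oil range for these 7, except for Rian in DHEA replicate 4 and Mirg in DHEA replicate 3, which lay below it. The 8 lncRNAs together held 0.274% and 0.292% of all counts in DHEA replicates 1 and 2, against 0.902% and 0.846% in DHEA replicates 3 and 4. In sesame oil replicates 1 to 4 they held 0.762%, 0.820%, 0.746% and 0.839%. The mean share was 0.578% ± 0.342 (SD, n = 4) with DHEA and 0.792% ± 0.0446 (SD, n = 4) with sesame oil, and the groups overlapped (two-sided exact permutation test, p = 0.429, smallest possible p = 0.0286). Leaving both out turned the difference from -0.214 to 0.0820 percentage points. The same libraries separated on the first principal component of all genes whose mean count reached 10, at 21.8 and 35.6 against -12.7 to -3.62 for the other 6. That component held 33.4% of the variance, and Meg3 had the 13th largest weight among 16813 genes. The fold changes and list counts below are therefore given with and without these libraries. Since they were singled out by their low values of the members, the members' fold changes without them are a description and carry no p.

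Other library properties moved with this split. Mitochondrially encoded genes took 7.87% and 9.34% of counts in DHEA replicates 1 and 2, and 6.37% to 7.58% in the others. The count-weighted harmonic mean of gene length, recovered from the FPKM sums, was 3053 and 2960 bases in DHEA replicates 1 and 2 and 3182 to 3240 bases in the others. Total counts were 38038361 and 36792550 in these libraries, the deepest of the 8, and 31483772 to 36206289 in the others. Their part in the lncRNA levels was not tested.

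**Figure D1:**
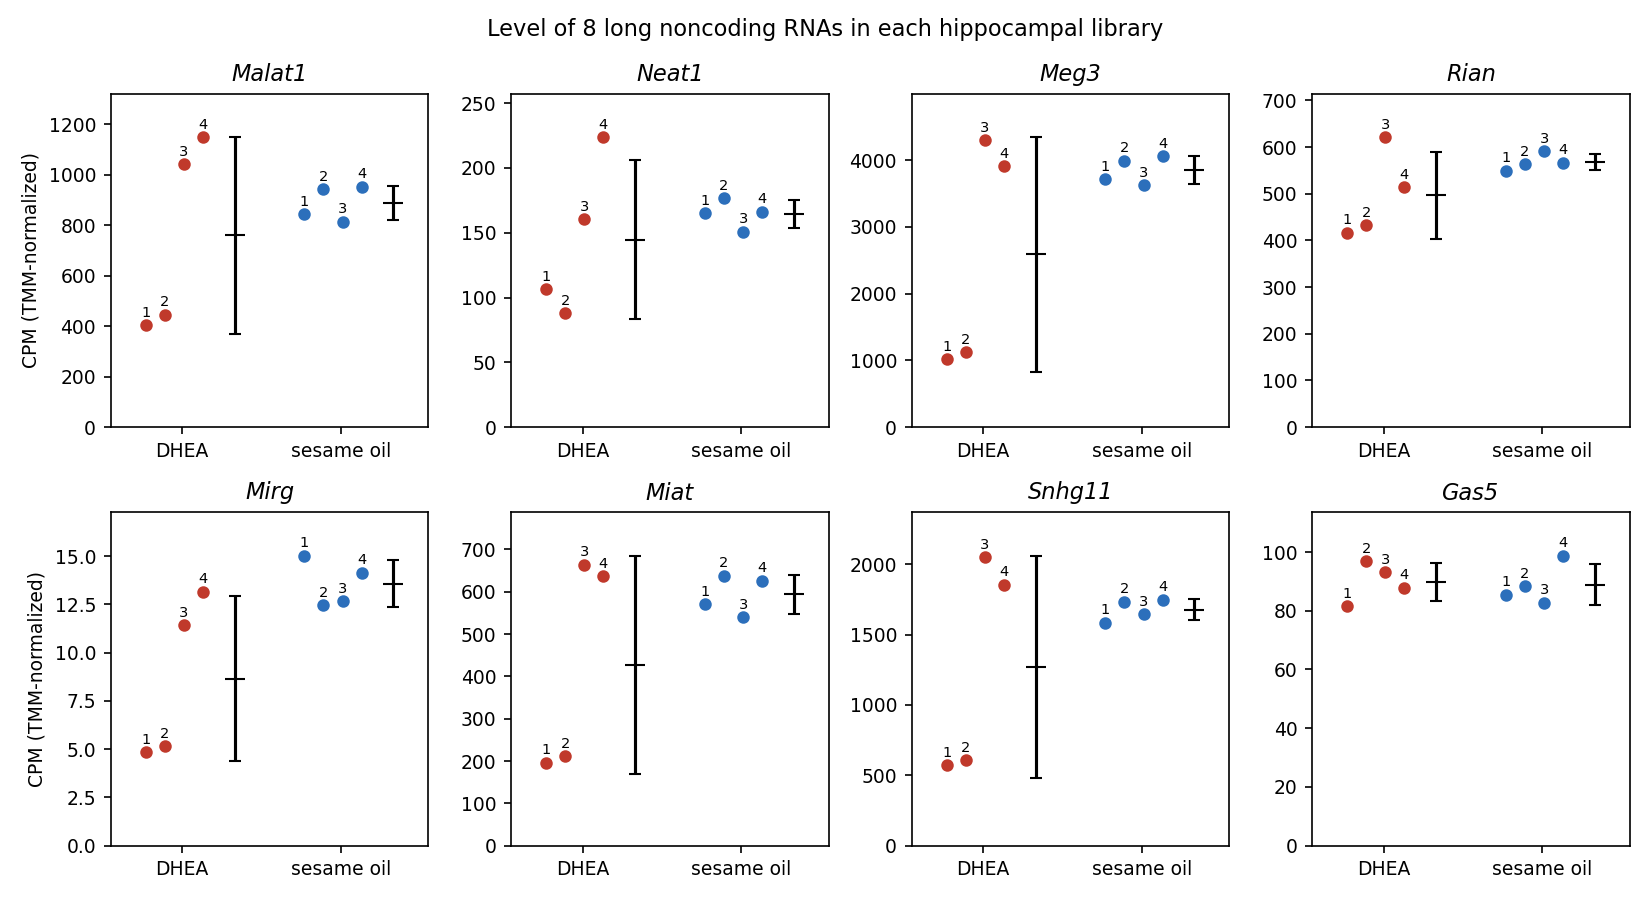
Each panel plots CPM (counts scaled to a common library total after TMM normalization, linear axis from 0) of one lncRNA, with a point for each library, its replicate number above it, and the group mean ± SD (n = 4) at the right. DHEA replicates 1 and 2 are the lowest points for all members but Gas5, whose libraries lie between 81.6 and 98.8 CPM.

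The relative abundance of the members was read as FPKM, which divides by gene length. In the sesame oil libraries Meg3 stood at 300 ± 18.2 FPKM (SD, n = 4) and Snhg11 at 277 ± 13.6, and their ranges overlapped. Rian at 160 ± 4.34 FPKM and Gas5 at 145 ± 12.5 FPKM overlapped as well, as did Gas5 and Malat1 at 128 ± 10.6 FPKM. Miat at 68.5 ± 5.62 FPKM lay below all of these without overlap. Mirg at 10.5 ± 1.003 FPKM and Neat1 at 8.002 ± 0.546 FPKM were lowest and did not overlap with each other. Of the members 6 were abundant, with a mean FPKM over all libraries above that of 97.0% to 99.6% of the 27612 genes with a count. Neat1 and Mirg, above 76.7% and 78.9%, were not. In DHEA replicates 1 and 2 the order was different, with Gas5 first at 129 and 151 FPKM, Rian second at 114 and 117 FPKM, Snhg11 next at 91.1 and 96.3 FPKM, and Meg3 after it at 77.1 and 84.1 FPKM. In DHEA replicates 3 and 4 Snhg11 and Meg3 were first and second, at 338 and 335 FPKM and at 306 and 304 FPKM.

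Among the nuclear body RNAs, Malat1 gave 403, 446, 1041 and 1148 CPM in DHEA replicates 1 to 4. The sesame oil replicates gave 845, 941, 814 and 952 CPM. That placed DHEA replicates 1 and 2 at 45.4% and 50.2% of the sesame oil mean, while DHEA replicates 3 and 4 lay above every sesame oil library, and the groups overlapped. The log2 fold change of DHEA over sesame oil was -0.23 ± 0.23 (SE) by edgeR's quasi-likelihood test (adjusted p = 0.702, Benjamini-Hochberg over 27612 genes). Without DHEA replicates 1 and 2 it turned to 0.30 ± 0.066 (SE). As these are bulk samples, fewer cells of a type and less RNA per cell cannot be told apart.

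Neat1, the paraspeckle scaffold, gave 106, 87.9, 161 and 224 CPM in DHEA replicates 1 to 4. In the sesame oil replicates it gave 165, 177, 151 and 166 CPM. DHEA replicate 2 was lowest and DHEA replicate 4 highest of all 8 libraries, so the DHEA group spanned the sesame oil group on both sides. Its log2 fold change was -0.19 ± 0.19 (SE, edgeR adjusted p = 0.687), and 0.22 ± 0.10 without DHEA replicates 1 and 2. Within a library Neat1 amounted to 26.4%, 19.7%, 15.4% and 19.5% of the Malat1 count in DHEA replicates 1 to 4, and 17.5% to 19.5% in sesame oil. DHEA replicate 1 was the highest library, DHEA replicate 2 lay just above the sesame oil range and DHEA replicate 3 below it. The mean log2 ratio was -2.33 ± 0.318 with DHEA and -2.43 ± 0.0669 with sesame oil (SD, n = 4 each, two-sided exact permutation test, p = 0.629, Benjamini-Hochberg adjusted over 3 ratios p = 0.743).

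Miat, which forms splicing-factor domains in neurons, gave 196, 211, 664 and 637 CPM in the DHEA replicates. It gave 571, 638, 540 and 626 CPM in the sesame oil replicates. The level in DHEA replicates 1 and 2 was 33.1% and 35.6% of the sesame oil mean and in DHEA replicates 3 and 4 it was 112% and 107%, so the groups overlapped. The log2 fold change was -0.48 ± 0.28 (SE, edgeR adjusted p = 0.611) and 0.13 ± 0.063 without DHEA replicates 1 and 2.

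Meg3, the first RNA of the imprinted cluster, had the widest swing of the members. It gave 1023, 1124, 4300 and 3907 CPM in DHEA replicates 1 to 4. The sesame oil replicates gave 3718, 3990, 3620 and 4062 CPM. Against the sesame oil mean DHEA replicates 1 and 2 stood at 26.6% and 29.2%, and DHEA replicate 3 was the highest of all libraries. The SD of its log2 CPM was 1.12 with DHEA and 0.080 with sesame oil, 14.05 times as large, and 45 of 12780 genes averaging 100 or more counts had a larger SD among the DHEA libraries. The log2 fold change was -0.57 ± 0.32 (SE, edgeR adjusted p = 0.591) and 0.09 ± 0.055 without DHEA replicates 1 and 2.

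Rian, the snoRNA-rich RNA that follows Meg3, gave 417, 433, 621 and 514 CPM in the DHEA replicates and 549, 563, 592 and 567 CPM in the sesame oil replicates. Again DHEA replicates 1 and 2 were lowest, at 73.4% and 76.3% of the sesame oil mean, with DHEA replicate 4 below and DHEA replicate 3 above every sesame oil library. Its log2 fold change was -0.19 ± 0.095 (SE, edgeR adjusted p = 0.548) and -0.01 ± 0.066 without those libraries.

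Mirg, the microRNA host at the far end, had the fewest counts, 180 to 498 per library. It gave 4.85, 5.16, 11.4 and 13.2 CPM in DHEA replicates 1 to 4 and 15.0, 12.5, 12.7 and 14.1 CPM in the sesame oil replicates. Every sesame oil library lay above DHEA replicates 1, 2 and 3, and DHEA replicate 4 lay among them. Alone among the members it had an unadjusted p under 0.05 in the fit over all genes, at a log2 fold change of -0.65 ± 0.24 (SE, edgeR unadjusted p = 0.0138, adjusted p = 0.402). It did not pass with DESeq2 (-0.66, DESeq2 unadjusted p = 0.0757) or with robust moderation (-0.65, edgeR unadjusted p = 0.124). With DHEA replicates 1 and 2 left out the log2 fold change was -0.15 ± 0.12.

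The neighbours did not keep their proportions within a library. Rian amounted to 40.7% and 38.5% of the Meg3 count in DHEA replicates 1 and 2, 14.5% and 13.2% in DHEA replicates 3 and 4, and 13.95% to 16.3% in sesame oil. The mean log2 ratio was -2.10 ± 0.881 with DHEA and -2.76 ± 0.104 with sesame oil (SD, n = 4 each, two-sided exact permutation test, p = 0.371, adjusted p = 0.743), and the difference of 0.66 became -0.10 without DHEA replicates 1 and 2. Mirg amounted to 0.474% and 0.459% of Meg3 in DHEA replicates 1 and 2, 0.266% and 0.337% in DHEA replicates 3 and 4, and 0.313% to 0.404% in sesame oil (two-sided exact permutation test on log2 ratios, n = 4 each, p = 0.743). The paternally expressed Rtl1 overlaps Meg3 and Rian in the annotation, and whether the counting used strand is not given in the sources used here, so reads of overlapping partners cannot be told apart.

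**Figure D2:**
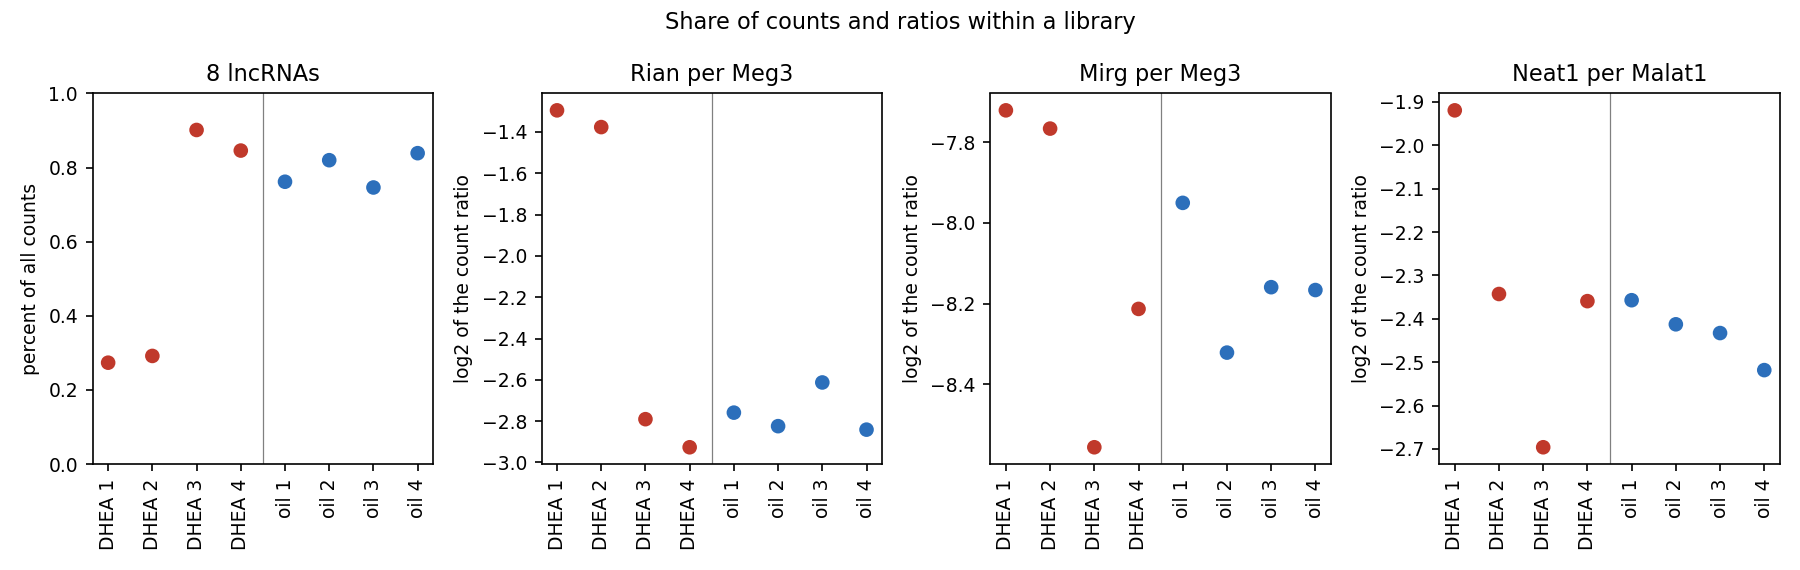
For each of the 8 libraries (x axis, DHEA in red, sesame oil in blue) the panels plot the percent of all counts held by the 8 lncRNAs and the log2 count ratios of Rian to Meg3, Mirg to Meg3 and Neat1 to Malat1. DHEA replicates 1 and 2 hold 0.274% and 0.292% of counts in the lncRNAs and have the highest Rian to Meg3 ratios, while for Neat1 to Malat1 DHEA replicate 1 is highest and DHEA replicate 3 lowest.

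The snoRNA hosts parted from each other. Snhg11, a neuron-enriched host RNA, gave 571, 608, 2050 and 1854 CPM in DHEA replicates 1 to 4. It gave 1584, 1733, 1646 and 1749 CPM in the sesame oil replicates. DHEA replicates 1 and 2 were at 34.0% and 36.2% of the sesame oil mean, and DHEA replicates 3 and 4 exceeded every sesame oil library. The log2 fold change was -0.40 ± 0.29 (SE, edgeR adjusted p = 0.663), and 0.21 ± 0.054 without DHEA replicates 1 and 2.

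Gas5 gave 81.6, 96.8, 93.0 and 87.9 CPM in the DHEA replicates and 85.4, 88.3, 82.7 and 98.8 CPM in the sesame oil replicates. No library stood out, DHEA replicates 1 and 2 were at 91.9% and 109% of the sesame oil mean, and the groups overlapped. Its log2 fold change was 0.02 ± 0.072 (SE, edgeR adjusted p = 0.958) and 0.02 ± 0.070 without those libraries. Its log2 SD was 0.106 with DHEA and 0.111 with sesame oil. Zbtb37 overlaps Gas5 in the annotation, so its counts carry the same limit on strand.

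**Figure D3:**
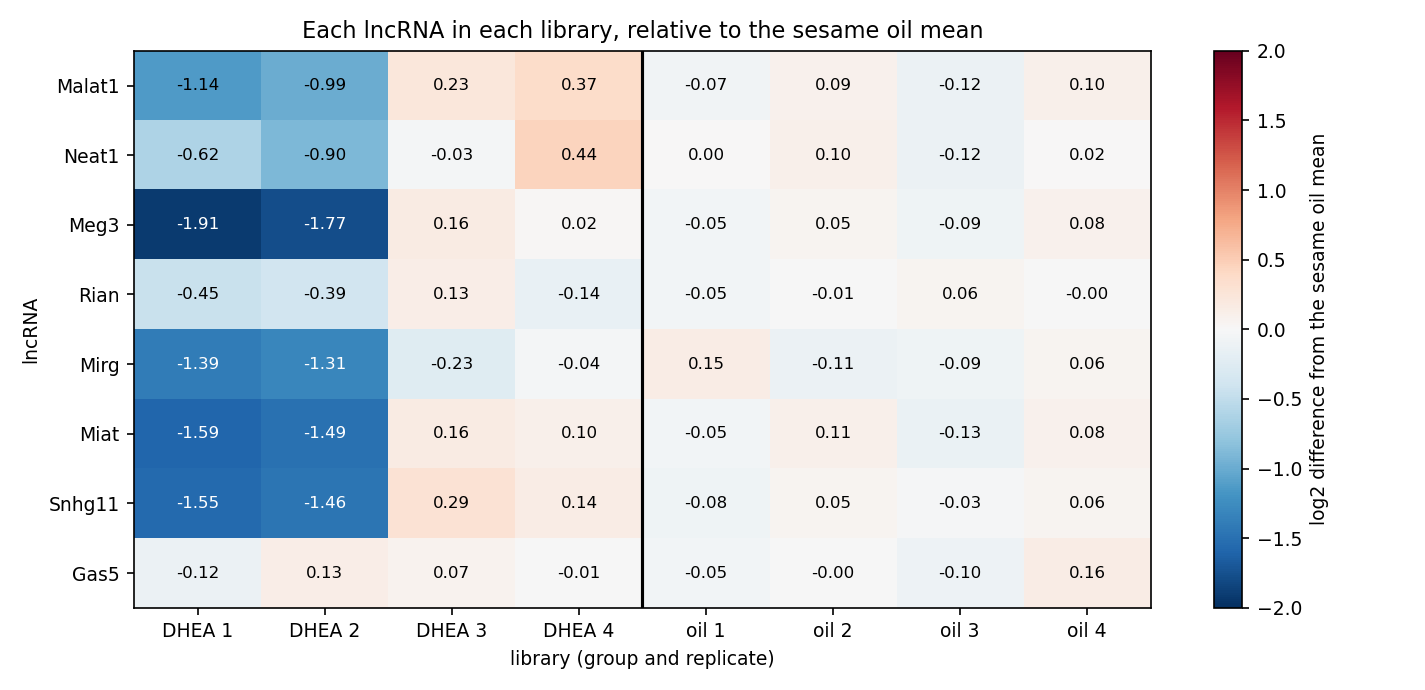
The grid gives, for each lncRNA (rows) and library (columns, DHEA left and sesame oil right of the line), the log2 CPM minus the mean of the 4 sesame oil libraries, with a pseudocount of 0.5. The first 2 columns run from -1.91 for Meg3 to -0.39 for Rian, except for Gas5 at -0.12 and 0.13.

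Across the members, 7 of 8 log2 fold changes were below 0 with all libraries, 1 of 8 had an unadjusted p under 0.05 and 0 of 8 an adjusted p under 0.05 by edgeR. Among all 27612 genes tested the unadjusted p was under 0.05 in 9.31% (2571 genes), in 4.49% with a lower level in DHEA, and the adjusted p in 0.0% (0 genes by edgeR, 153 by DESeq2). The limits used in the study (a 2-fold difference either way together with an unadjusted p under 0.05) were met by 1.6% of genes and by 0 members. The groups did not overlap in 5.04% of genes and overlapped in all 8 members, whose two-sided exact permutation p on CPM ran from 0.0857 for Mirg to 0.886 for Gas5 (n = 4 each). The median log2 fold change of the members was -0.31, beside 0.01 for all genes tested. In the fit without those libraries, 6 of 8 were above 0 and their median was 0.11. That direction follows in part from which libraries were left out. Of the 27062 genes tested then, 7.89% had an unadjusted p under 0.05, 3.99% higher and 3.89% lower in DHEA, and 0.0037% an adjusted p under 0.05. The first 3 are the shares beside which the list counts without DHEA replicates 1 and 2 stand.

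**Figure D4:**
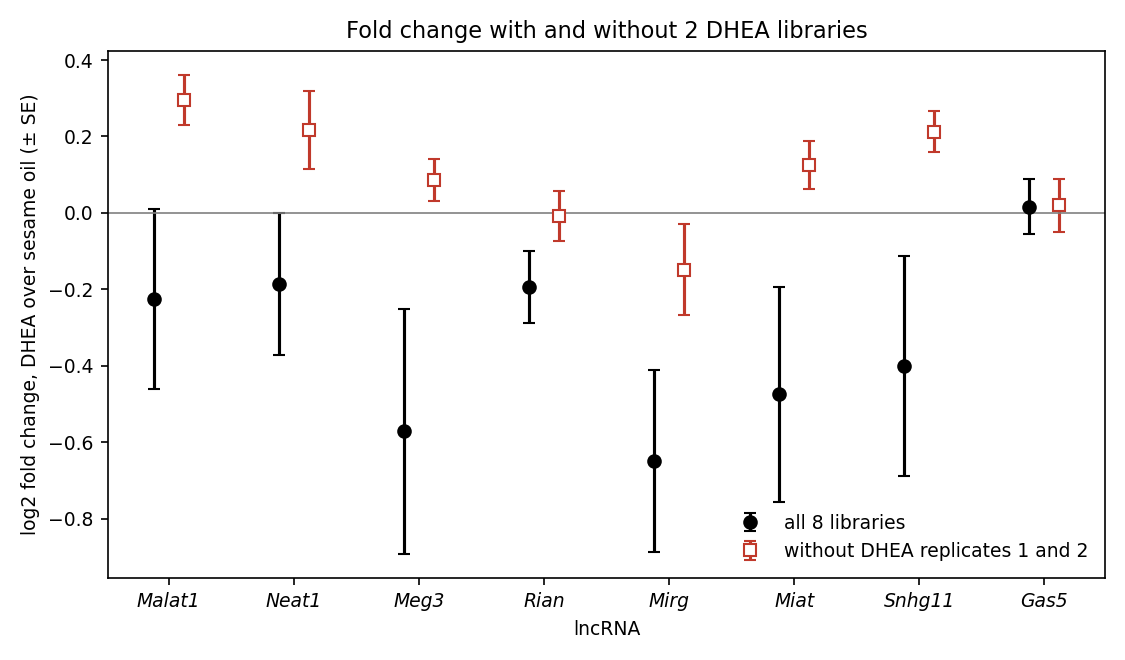
Log2 fold change of DHEA over sesame oil (± SE, edgeR) for each lncRNA, with all 8 libraries (black circles) and without DHEA replicates 1 and 2 (open red squares). Malat1, Neat1, Meg3, Miat and Snhg11 pass from below to above 0 when those libraries are left out, and Gas5 stays at 0.02.

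The spread among the DHEA libraries was itself unusual. The log2 SD of Malat1, Neat1, Mirg, Miat and Snhg11 over the DHEA replicates was 0.793, 0.602, 0.707, 0.967 and 0.999, beside a median of 0.132 over those 12780 genes. These exceeded 97.7% to 99.5% of those genes. Rian at 0.263 exceeded 86.0% and Gas5 36.4%. In the sesame oil libraries the members' SD ran from 0.045 for Rian to 0.124 for Mirg, around the median of 0.0888, so the members were not variable there.

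Because the libraries formed a low pair and a group of 6 for most members, no correlation over all 8 is given as a result. Over the other 6 libraries, Meg3 and Miat had the highest Pearson's r of the 28 pairs, at r = 0.93 (exact permutation p = 0.00694, adjusted over 28 pairs p = 0.194) and Spearman's rho = 0.83 (exact permutation p = 0.0583, adjusted p = 0.445). Without the 2 libraries farthest from the median of Meg3 the r was 0.84. The highest rho was that of Meg3 and Gas5, at 0.94 (exact permutation p = 0.0167, adjusted p = 0.445). No pair passed the adjustment.

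As a description of likeness, Pearson's r of log2 CPM was taken over all 8 libraries against 12779 genes averaging 100 or more counts. Closest to Malat1 were LOC108167518, a predicted lncRNA on chromosome 8, and Ddx17, an RNA helicase that takes part in splicing, both at r = 0.996, and then Tial1, an RNA-binding regulator of splicing, at 0.994. Closest to Meg3 were Miat at 0.998, Ogt, the enzyme that adds O-GlcNAc to proteins, at 0.998, and Ftx, a lncRNA of the X-inactivation centre, at 0.997. All 6 of these genes were lowest in DHEA replicates 1 and 2, by log2 differences of -1.59 to -0.50 from the sesame oil mean. Closest to Gas5 were Zfp330 at 0.963, Axin1, a scaffold of the beta-catenin destruction complex, at 0.944 and Pcsk6 at 0.935. Between Meg3 and the other members such an r changed when DHEA replicates 1 and 2 were left out, in both directions. It went from 0.97 to 0.66 for Malat1, from 0.90 to 0.11 for Neat1, from 0.93 to 0.35 for Rian and from 0.97 to -0.51 for Mirg. For Miat and Snhg11 it went from 0.998 to 0.93 and from 0.996 to 0.86, and for Gas5 it was higher over the 6 libraries, at 0.80 in place of 0.10.

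The genes around the imprinted lncRNAs were read from a list of 8 that includes Meg3, Rian and Mirg. By an unadjusted p under 0.05, 0 were higher and 1, Mirg, was lower (background 4.82% higher and 4.49% lower). By adjusted p there were 0, and the median log2 fold change was -0.34. All 8 had a log2 fold change below 0, beside 13471 of the 27612 genes tested. In DHEA replicates 1 and 2 the protein-coding flanks Dlk1, Dio3 and Begain stood closer to the sesame oil mean than Meg3 and Mirg did. The protein-coding Rtl1, within the cluster, stood farther from it than Mirg in DHEA replicate 1. Dlk1, a Notch-family ligand, stood at log2 differences of -0.24 and -0.28 from the sesame oil mean, within the sesame oil range of -0.31 to 0.32. Dio3, which inactivates thyroid hormone, stood at 0.13 and -0.54, and Begain at -0.13 and -0.01. Rtl1, the retrotransposon-derived gene read from the other strand of the Meg3 to Rian interval, stood at -1.47 and -0.96, with a mean count of 53.2. Without DHEA replicates 1 and 2, 0 were higher and 0 lower, and the median was -0.07.

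Among 21 snoRNA hosts, which include Gas5, Snhg11 and Rian, 0 were higher and 1 lower at an unadjusted p under 0.05. The background was 4.82% higher and 4.49% lower, and the median log2 fold change of the hosts was -0.01. The lower host was Snhg12, at -0.24 ± 0.10 (SE, edgeR unadjusted p = 0.0291, adjusted p = 0.484) and -0.25 without DHEA replicates 1 and 2. Snhg11 had the highest FPKM of the list. Snhg14, the long imprinted host of the Prader-Willi snoRNA clusters, gave 43.0, 45.3, 107 and 99.0 CPM in DHEA replicates 1 to 4 and 80.7 to 92.2 CPM in sesame oil. In both DHEA replicates 1 and 2, 8 of the 20 hosts averaging 10 or more counts lay below every sesame oil library (40.0%, beside 19.9% of all such genes). Snhg11 and Rian are among these 8, and their low values helped to single out the libraries, so this share is a description only. In both DHEA replicates 3 and 4, 1 of 20 lay below every sesame oil library (5.0%, beside 10.2%). Snhg7 stood at log2 differences of -0.38 and -0.69 in DHEA replicates 1 and 2, and Snhg6 at 0.06 and 0.34. With both left out, Snhg14 and Snhg17 had higher values and Snhg12 lower ones at an unadjusted p under 0.05, and the median of the 21 hosts was 0.04. Snhg11 is not counted there, as its low values helped to single out these libraries, and Snhg14 was low in them as well.

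Nuclear speckle and SR proteins, the protein partners of Malat1, were low in the same libraries. Of 18 genes, 0 were higher and 8 lower in DHEA at an unadjusted p under 0.05 (background 4.49% lower), 0 by adjusted p, and all 18 had a log2 fold change below 0 with a median of -0.23. Srsf4 stood at -0.25 ± 0.065 (SE, edgeR unadjusted p = 0.00143, adjusted p = 0.261) and Pnn at -0.37 ± 0.11 (SE, edgeR unadjusted p = 0.00325, adjusted p = 0.293). Srsf5, the most abundant by FPKM, stood at -0.19 ± 0.12. With DHEA replicates 1 and 2 left out these were -0.20 for Srsf4, -0.13 for Pnn and 0.06 for Srsf5. In both DHEA replicates 1 and 2, 17 of the 18 lay below every sesame oil library, and in both DHEA replicates 3 and 4, 4 of the 18, beside 19.9% and 10.2% of the 16813 genes averaging 10 or more counts. Without DHEA replicates 1 and 2, 1 was higher and 2 lower, and the median was -0.01.

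Paraspeckle proteins, the partners of Neat1, split. Of the 14 genes 7 lay below every sesame oil library in both DHEA replicates 1 and 2 (beside 19.9% of all genes averaging 10 or more counts) and 5 in both DHEA replicates 3 and 4 (beside 10.2%). Of 14 genes 0 were higher and 4 lower at an unadjusted p under 0.05 (background 4.49% lower), 0 by adjusted p, with a median log2 fold change of -0.09. Smarca4, a chromatin remodelling ATPase, stood at -0.24 ± 0.058 (SE, edgeR unadjusted p = 0.000548, adjusted p = 0.240), and kept -0.24 without DHEA replicates 1 and 2. Hnrnph3 stood at -0.28 ± 0.072 (SE, edgeR unadjusted p = 0.00106, adjusted p = 0.245) and at -0.19 without them. Sfpq, a core paraspeckle protein, gave 235, 227, 401 and 426 CPM in the DHEA replicates against 418 to 460 CPM in sesame oil. Its partner Nono differed by 0.11 and 0.06 in DHEA replicates 1 and 2 on the log2 scale, with a log2 fold change of -0.03 over all libraries and -0.15 without that pair (edgeR unadjusted p = 0.0101). Matr3, the most abundant by FPKM, had a log2 fold change of 0.07 ± 0.071 with all libraries and -0.08 without those. Of the list, 0 were then higher and 3 lower (background 3.89% lower), and the median was -0.06.

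Of the 3 splicing factors known to bind Miat, all had an unadjusted p under 0.05 by edgeR (background 9.31% in either direction) and 0 an adjusted p under 0.05. Sf1 stood at -0.21 ± 0.066 and Celf3 at -0.28 ± 0.098, whereas Qk, which is also rich in glia, stood at 0.20 ± 0.066 (SE). When DHEA replicates 1 and 2 were left out they stood at -0.13, -0.10 and 0.17, and 1 was higher and 1 lower, with Celf3 past the threshold no longer. Among 10 nonsense-mediated decay factors, on which Gas5 turnover depends, 0 were higher and 4 lower (background 4.49% lower), with a median of -0.15. Upf1, the central helicase, stood at -0.21 ± 0.068 (edgeR unadjusted p = 0.00633, adjusted p = 0.332) and Smg1, its kinase, at -0.33 ± 0.12 (edgeR unadjusted p = 0.00988, adjusted p = 0.372). In that list 0 were higher and 3 lower once DHEA replicates 1 and 2 were left out (background 3.89% lower), and the median was -0.08. Upf1 then stood at -0.18 and Smg1 at -0.07. Of the 4 receptors whose DNA-binding domain the Gas5 hairpin can occupy, 0 passed at an unadjusted p under 0.05. The glucocorticoid receptor Nr3c1 gave 0.14 ± 0.072 and the mineralocorticoid receptor Nr3c2, the most abundant of them, 0.11 ± 0.097 (SE) on the log2 scale. None of the 4 passed without DHEA replicates 1 and 2 either, where Nr3c1 gave 0.01 and Nr3c2 -0.09.

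Other lncRNAs did not all follow the members. Of 26 listed, 22 could be tested, and 1 was higher and 1 lower at an unadjusted p under 0.05 (background 4.82% higher and 4.49% lower). By adjusted p 0 passed, and the median log2 fold change was 0.03. Mir124a-1hg, the host of the neuronal microRNA miR-124, gave 61.7, 65.2, 186 and 182 CPM in DHEA replicates 1 to 4 and 180 to 198 CPM in sesame oil. Its log2 fold change was -0.63 ± 0.26 (SE, edgeR unadjusted p = 0.0255, adjusted p = 0.465) over all libraries. It was -0.06 without DHEA replicates 1 and 2, a value that follows in part from leaving out the libraries where it was low. Ftx, with 22.6, 23.0, 66.7 and 60.8 CPM, and the imprinted antisense RNA Kcnq1ot1, with 11.2, 13.8, 39.3 and 30.8 CPM, had the same shape. Norad, a cytoplasmic lncRNA that binds Pumilio proteins and the most abundant of the list by FPKM, gave 1260, 1362, 1191 and 1134 CPM with DHEA and 1118 to 1186 CPM with sesame oil. Tug1 and Oip5os1 stood at log2 differences of 0.08 to 0.32 in DHEA replicates 1 and 2. Bc1, a small dendritic RNA, gave 6.65, 14.2, 11.3 and 9.33 CPM with DHEA and 6.64 to 8.38 CPM with sesame oil, at 0.46 ± 0.18 (SE, edgeR unadjusted p = 0.0198, adjusted p = 0.429) and 0.44 without DHEA replicates 1 and 2. In the fit without DHEA replicates 1 and 2, 3 were higher and 0 lower, and the median was 0.05.

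When genes averaging 100 or more counts were split by RefSeq biotype, a grouping added after the data were seen, 395 were lncRNAs and 12338 protein-coding. In DHEA replicates 1 and 2, 13.4% and 10.4% of the lncRNAs stood at least 2-fold below the sesame oil mean, against 0.600% and 1.03% of the protein-coding genes. The lncRNAs counted include the members, whose low values helped to single out these libraries. In DHEA replicates 3 and 4 this held for 0 and 0 of the lncRNAs. At least 2-fold above the sesame oil mean were 0.0% and 0.253% of the lncRNAs in DHEA replicates 1 and 2. The median lncRNA stood at -0.19 and -0.11 in these libraries, nearer the sesame oil mean than every member other than Gas5.

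Cell type markers were read for what moved with the members. Snap25, a presynaptic protein of neurons in general, stood at 1771 to 2040 CPM, and Wfs1 was the most abundant by FPKM of the subfield list. Neither value places the dissection within the brain. By an unadjusted p under 0.05 (background 4.82% higher and 4.49% lower), of the 10 neuronal markers 0 were higher and 1 lower. Of the 6 inhibitory neuron markers 0 were higher and 0 lower. Summed neuronal markers stood at 10828 and 10881 CPM in DHEA replicates 1 and 2 and at 10080 to 10827 CPM in the others. Of the 8 subfield markers 1 was higher and 0 lower, and of the 6 thalamic markers 1 and 0, beside the same background. With DHEA replicates 1 and 2 left out, 4 of the 10 neuronal markers were lower (median -0.10), 1 of the 6 inhibitory and 2 of the 8 subfield markers were lower (background 3.89%), no marker of these 3 lists was higher, and 1 thalamic marker was higher. Among those lower was Rbfox3, a neuronal splicing regulator, at -0.16 ± 0.055 (SE, edgeR unadjusted p = 0.00781, adjusted p = 0.348) over all libraries and -0.18 without the pair. The summed neuronal markers were not low in DHEA replicates 1 and 2, and single neuronal markers were lower in DHEA replicates 3 and 4 than in sesame oil. The part of neuronal content in the lncRNA levels was not tested.

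Oligodendrocyte markers had higher values in the libraries labelled DHEA, and astrocyte, microglial and endothelial markers did so in part. Of the 8 oligodendrocyte markers 8 were higher at an unadjusted p under 0.05 (background 4.82% higher) and 0 by adjusted p, with a median of 0.40. Mal, a membrane protein of myelin, stood at 0.55 ± 0.094 (SE, edgeR adjusted p = 0.0647) and at 0.57 without DHEA replicates 1 and 2. Summed oligodendrocyte markers gave 6679, 8429, 6608 and 6945 CPM in DHEA replicates 1 to 4 and 5338, 5305, 4502 and 6403 CPM in sesame oil, so all 4 DHEA libraries were high. Astrocyte markers were higher in 4 of 8, microglial in 5 of 8 and endothelial in 4 of 6 at an unadjusted p under 0.05, with 0 lower and 0 by adjusted p in each. In the fit without DHEA replicates 1 and 2, 7 of 8 oligodendrocyte, 2 of 8 astrocyte, 1 of 8 microglial and 2 of 6 endothelial markers were higher, and 1 endothelial marker, Flt1, was lower at -0.13. The summed astrocyte, microglial and endothelial markers were highest in DHEA replicate 2, at 7416, 522 and 367 summed CPM against 5495 to 6673, 348 to 444 and 270 to 336 in the others. Their part in the lncRNA levels was not tested.

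Markers of neighbouring tissue were uneven between libraries, and their part in the lncRNA levels was not tested. Choroid plexus markers summed to 4437 and 92.0 CPM in DHEA replicates 1 and 2, the highest and the lowest of all 8 libraries. Ttr, the most abundant of that list, gave 4015 and 60.4 CPM there, and 0 of its 6 genes had an unadjusted p under 0.05, or 1 of 6, higher, without DHEA replicates 1 and 2. Anterior pituitary markers, of which 6 of 7 were tested and Fshb was at 0 counts throughout, were lower in 3 and higher in 0 (background 4.49% lower), with the same counts when that pair was left out. Their sum was 30.1 CPM in sesame oil replicate 2 and 1.85 to 6.91 CPM elsewhere, and Prl, the most abundant by FPKM, gave 16.6 CPM in that library.

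**Figure D5:**
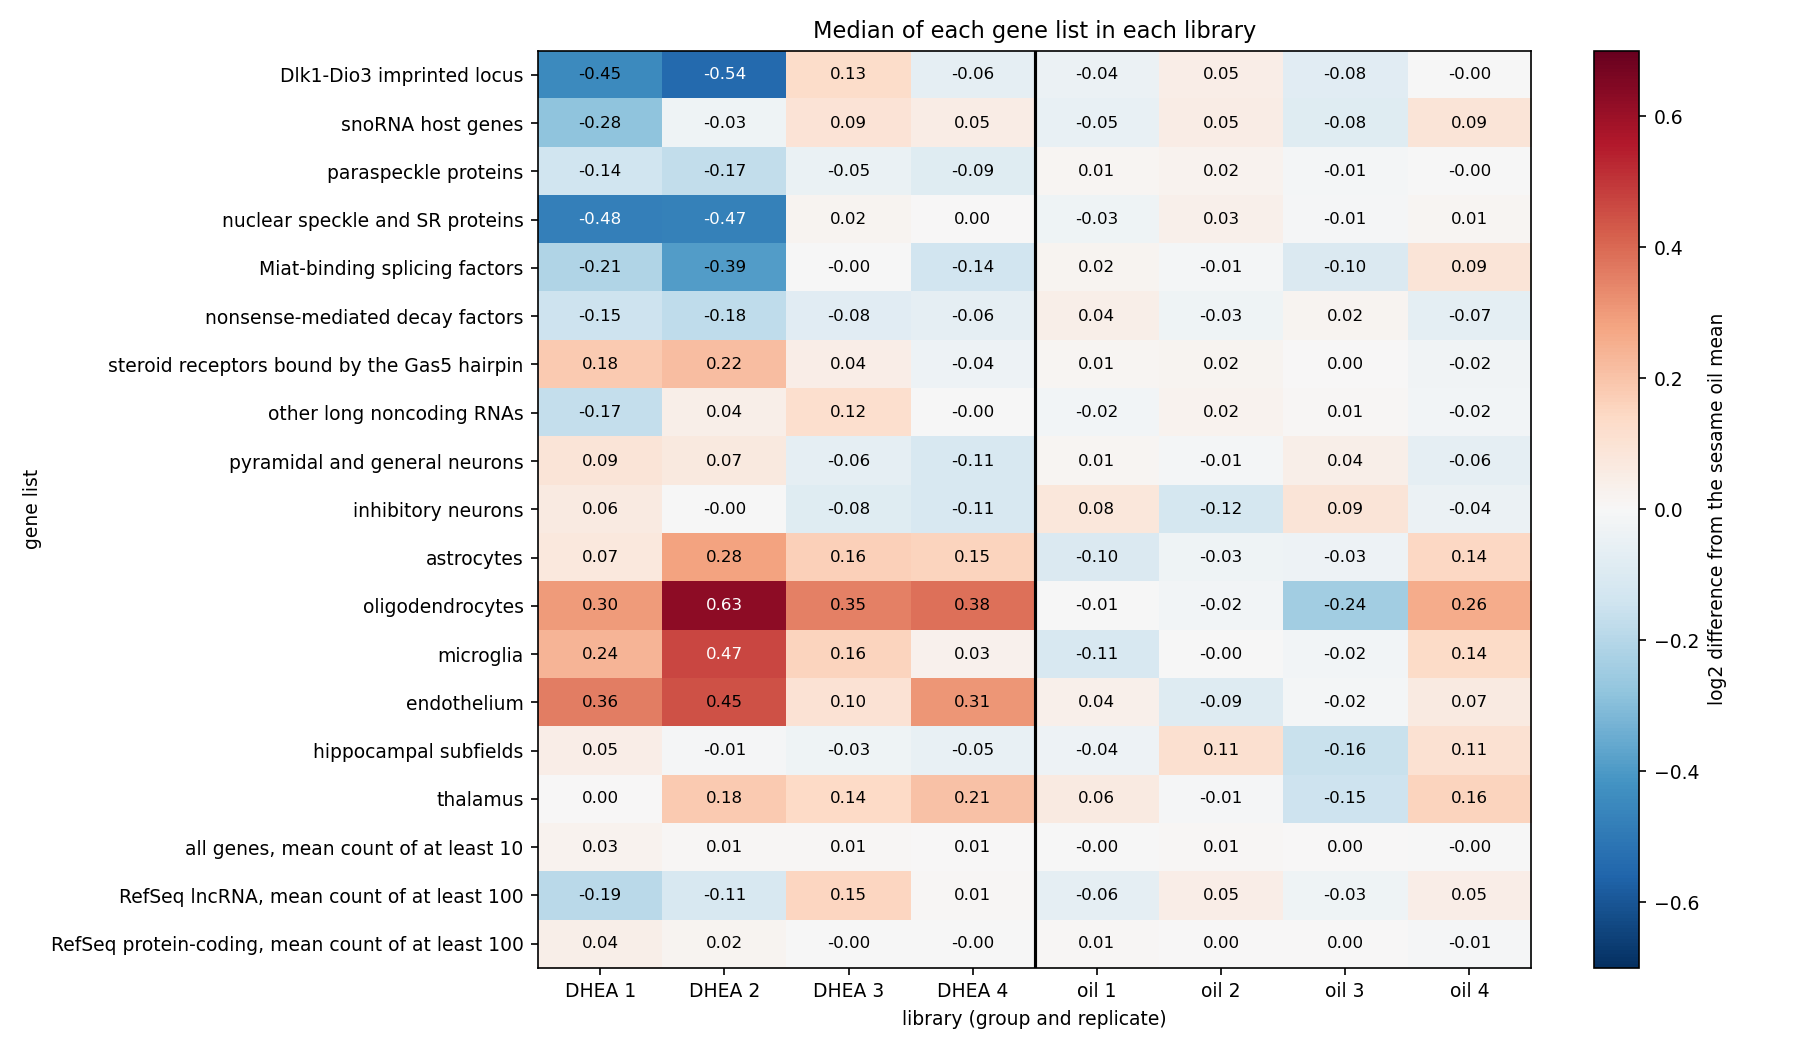
Median log2 difference from the sesame oil mean for each gene list (rows, genes averaging 10 or more counts unless the row says otherwise) in each library (columns), without the pituitary and choroid plexus lists. Nuclear speckle and SR proteins stand at -0.48 and -0.47 in DHEA replicates 1 and 2 and at 0.02 and 0.00 in DHEA replicates 3 and 4, while oligodendrocyte markers stand at 0.30 to 0.63 in the DHEA libraries.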

How the data were processed

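The authors trimmed reads and deposited a table of raw read counts per gene and a table of FPKM values. The submitters' processing notes name fastp, HISAT2, HTSeq and build GRCm39, with versions not given in the sources used here. The deposited FPKM equal the counts divided by the library total and 1 length per gene, within 0.1% in 25234 of 25234 genes with values in at least 2 libraries, so they add no measurement. Reference sequences and annotation are of another build (GRCm38.p6) and were matched by symbol only.

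Counts were fitted with edgeR 4.0.16 in R 4.3.3 (TMM, quasi-likelihood test, prior count 0.125) on the 27612 genes with at least 1 count, and p-values were adjusted by Benjamini-Hochberg over all of them. Standard errors were obtained from each gene's log2 fold change and the root of its F statistic. The CPM given are scaled by TMM, and log2 CPM used a pseudocount of 0.5. Alternatives used DESeq2 1.42.0 and limma 3.58.1. For single values a two-sided exact permutation test took all 70 allocations of libraries. Depth was 31483772 to 38038361 counts, where 3 counts make at most 0.0953 CPM. Such limits cover counting error only. Groups came from the treatment labels, and replicates were numbered in accession order. Same-group libraries differed by more than sampling noise, so none was merged.

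The members and gene lists were chosen with earlier results of these data known. Genes named from a list were its most abundant by FPKM, the 2 with the smallest p and any with an adjusted p under 0.05. Other list members were named after their values were seen. The steps were tested on simulated data. Some list genes and overlapping genes that these rules would name are not reported here.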

Additional observations from a re-analysis of the deposited data

How the results depend on the processing

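The 7 members other than Gas5 kept a log2 fold change below 0 under each of 12 other settings of test, normalization, filter, unit, depth and GC content, and under each of 8 fits that left out 1 library, but the size moved. When 1 library was left out, Malat1 ranged from -0.50 to -0.016, Neat1 from -0.48 to -0.016, Meg3 from -0.93 to -0.31, Rian from -0.32 to -0.12, Mirg from -0.93 to -0.45, Miat from -0.77 to -0.24 and Snhg11 from -0.73 to -0.16. The values nearest 0 came without DHEA replicate 1 or 2 and the others without DHEA replicate 3 or 4. Leaving out both DHEA replicates 1 and 2, an alternative chosen after seeing the data, turned Malat1 to 0.30, Neat1 to 0.22, Meg3 to 0.086, Miat to 0.13 and Snhg11 to 0.21, and left Rian at -0.01 and Mirg at -0.15. Gas5, whose value lay near 0 throughout, turned to -0.0107 by limma-trend with a pseudocount of 1 or 0.1 FPKM, to -0.040 with the GC trend removed, and ranged from -0.029 to 0.071 when 1 library was left out. In those limma-trend fits the members' log2 fold changes lay as far from 0 as -0.90, for Meg3.

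The number of members with an unadjusted p under 0.05 was 1 in the fit reported, and 0 with DESeq2 and with robust moderation. It was 2 with RLE normalization, with libraries thinned to the smallest total and with the GC trend removed. Over all genes the number was 2571 of 27612 in the fit reported, 2598 of 27612 with RLE normalization, 2534 of 27437 with thinned libraries and 2363 of 27612 with the GC trend removed. No such count of members is given without DHEA replicates 1 and 2, as those libraries were chosen by the members' own values. The number of members was 4 (Neat1, Meg3, Mirg and Miat) without replicate 4 of both groups, beside 2779 of all 26882 genes tested. Those libraries have record numbers that lie apart, and this alternative was chosen after seeing the data. With 1 library left out the number of members ranged from 1 to 6, beside 1786 to 3667 of all genes. It was 5 without DHEA replicate 3 (beside 3667 of 27264 genes) and 6 without DHEA replicate 4 (beside 3236 of 27288). The fits without DHEA replicate 3, without DHEA replicate 4 and without replicate 4 of both groups all kept DHEA replicates 1 and 2, so these counts are a description only. No member had an adjusted p under 0.05 in any of these fits, the smallest being 0.0578 for Rian. Over all genes, the number with an adjusted p under 0.05 was 0, with 153 by DESeq2, 4 with robust moderation, 1 without DHEA replicates 1 and 2, 38 without replicate 4 of both groups, and 0 to 93 when 1 library was left out (93 without DHEA replicate 3). The study's thresholds were met by 442 genes in the fit reported and by 361 to 512 when 1 library was left out, with 164 by DESeq2, 284 with at least 10 counts, 62 with filterByExpr, and 1 and 48 by limma-trend with a pseudocount of 1 and 0.1 FPKM.

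Without DHEA replicates 1 and 2 the difference in the Neat1 to Malat1 log2 ratio was -0.10, in Rian to Meg3 -0.10, in Mirg to Meg3 -0.23, and in the share of counts 0.0820 percentage points. When 1 library was left out these ranged from -0.036 to 0.22, 0.39 to 0.94, -0.029 to 0.25 and -0.321 to -0.112. The cause of these dependences was not tested. No paired analysis was possible because the labels give the groups no shared replicate numbers. Since the libraries formed separate clusters, the planned permutation tests of correlations between members over all 8 libraries and on deviations from group means were not run. Mirg, with as few as 180 counts in a library, carries the largest counting error of the members.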
